A study of Mus musculus with 8 samples.

Results

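The genes of the cytosolic ribosome were described by where V5-ZGLP1 peak summits lay around them. Members were the protein-coding genes of the RefSeq annotation of GRCm38.p6 whose symbols begin with Rpl, Rps or Rplp and a digit, together with Rpsa and without the Rps6k kinases. The rule found 91 members among 21900 protein-coding genes. Of these, 77 encode the core proteins of the ribosome, 31 of the small subunit, 43 of the large subunit and 3 of its P stalk. A further 12 are copies or retained duplicates of such genes. The last 2, Rps19bp1 and Rps23rg1, carry the name of a ribosomal protein but do not encode one: Rps19bp1 encodes a protein that binds RPS19.

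ZGLP1 is a zinc-finger protein of the GATA family type that acts in germ cells. The study switched on a V5-tagged Zglp1 transgene with doxycycline (Dox) in mouse cells of C57BL/6 x DBA2 background and recovered the tagged protein's DNA with an anti-V5 antibody. There were 8 libraries, 1 per group, with no replicate. PGCLCs, cultured cells that resemble primordial germ cells and are derived from pluripotent cells, gave 4 of the 5 ChIP libraries: culture day 7 (c7) and day 8 (c8), each with Dox alone and with Dox and retinoic acid (RA). Treatment began on culture day 3, and cells positive for both SC and mCherry were sorted. Embryonic stem cells (ESCs) kept under 2iLIF gave the fifth after 24 h of Dox and RA, sorted for mCherry alone. The 3 inputs came from c8 PGCLCs with Dox, c8 PGCLCs with Dox and RA, and ESCs. All groups carried the overexpressed transgene and received Dox, so no group was free of the factor. The deposited list holds 32927 summits with no library, height or score. No comparison of conditions, cell types or libraries could therefore be made, no test was run, and the list cannot show whether a summit was found in PGCLCs, in ESCs or in both. It holds no expression values against which the labelled cell types could be checked.

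The cytosolic ribosome translates nuclear messages in every cell. Its small subunit reads the message and its large subunit joins the amino acids. Many of these messages begin with a C and a run of pyrimidines, the 5′ terminal oligopyrimidine (TOP) tract through which mTOR and LARP1 control their translation. Ribosomal protein messages also gave rise to very many processed pseudogenes, and several introns of these genes hold small nucleolar RNAs (snoRNAs).

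The promoter stretches below show where summits fell in 8 members, the ones with the summit closest to an annotated start among the members named by rule. Each runs 5′ to 3′ on the gene's own strand over 150 bases, with the annotated start at base 121. Capitals mark the summit base with up to 5 bases on either side, and the stretch of Rps27l ends 1 base after its summit. Sequences are RefSeq's, in build GRCm38.p6.
Rpl31, chr1:39367731-39367880, plus strand: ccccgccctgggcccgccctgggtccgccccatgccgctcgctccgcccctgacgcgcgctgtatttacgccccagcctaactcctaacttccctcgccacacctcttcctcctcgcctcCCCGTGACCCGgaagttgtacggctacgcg
Rps4x, chrX:102189362-102189511, minus strand: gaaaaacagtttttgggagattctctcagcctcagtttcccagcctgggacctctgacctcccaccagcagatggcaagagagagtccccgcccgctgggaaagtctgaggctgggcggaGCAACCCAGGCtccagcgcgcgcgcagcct
Rps15, chr10:80292311-80292460, plus strand: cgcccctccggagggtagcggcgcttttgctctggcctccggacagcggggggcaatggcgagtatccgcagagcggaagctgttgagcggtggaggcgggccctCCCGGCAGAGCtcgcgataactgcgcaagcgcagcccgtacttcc
Rps6, chr4:86857338-86857487, minus strand: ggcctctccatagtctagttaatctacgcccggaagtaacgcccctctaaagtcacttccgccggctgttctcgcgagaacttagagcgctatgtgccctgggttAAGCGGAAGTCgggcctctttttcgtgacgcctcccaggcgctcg
Rpl10l, chr12:66284372-66284521, minus strand: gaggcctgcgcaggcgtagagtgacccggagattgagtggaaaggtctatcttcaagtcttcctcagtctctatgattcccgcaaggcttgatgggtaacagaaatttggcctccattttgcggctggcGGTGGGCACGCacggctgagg
Rpl10a, chr17:28328445-28328594, plus strand: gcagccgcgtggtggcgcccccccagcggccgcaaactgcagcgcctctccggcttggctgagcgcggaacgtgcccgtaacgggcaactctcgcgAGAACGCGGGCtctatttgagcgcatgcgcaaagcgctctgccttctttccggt
Rps27l, chr9:66945966-66946115, plus strand: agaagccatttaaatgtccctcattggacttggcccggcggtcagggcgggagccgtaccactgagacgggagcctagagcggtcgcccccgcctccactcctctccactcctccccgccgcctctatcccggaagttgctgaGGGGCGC
Rpl23, chr11:97782410-97782559, minus strand: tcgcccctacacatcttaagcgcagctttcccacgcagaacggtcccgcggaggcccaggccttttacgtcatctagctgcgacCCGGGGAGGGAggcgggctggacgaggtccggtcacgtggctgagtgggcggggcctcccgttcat

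In all 8, the summit lay within 31 bases of an annotated start, the largest of these distances being that of Rpl23, upstream. Rpl31 and Rps4x had their summits 5 bases into the gene, Rps15 and Rps6 10 bases upstream of it, and Rpl10l 14 bases into it. The summit of Rpl10a lay 19 bases upstream of the closer of its 2 annotated starts, and that of Rps27l 28 bases downstream of a start that lies inside the gene.

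A summit lay within 1 kb of either end of 84 of the 91 members (92.3%, exact 95% interval 84.8% to 96.9%), beside 52.9% of all protein-coding genes. Within 10 kb the count was 89 of 91 (97.8%, 92.3% to 99.7%) beside 66.6% of all protein-coding genes. Among the core genes, 76 of 77 had a summit within 1 kb (98.7%) and all 77 within 2 kb. The counts of the 12 copies were lower, with 6 at 1 kb (50%, 21.1% to 78.9%) and 10 at 10 kb. Intervals are Clopper-Pearson and cover counting error only. Of the 7279 coding genes in the core genes' range of length, 982 to 11774 bases, 48% had a summit within 1 kb. The plot of shares by distance limit shows the core genes above all coding genes at each limit drawn.

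**Figure D1:**
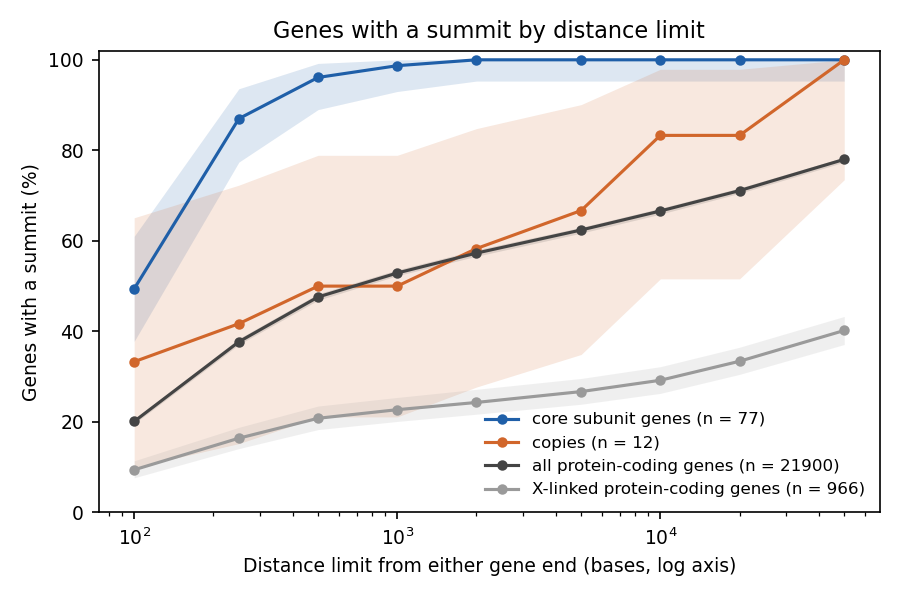
Percentage of genes with a summit (y axis) within a distance limit of either gene end (x axis, bases, log scale) for the 77 core genes, 12 copies, 21900 protein-coding genes and 966 X-linked protein-coding genes; shaded bands are exact 95% binomial intervals. The core genes reach 87% at 250 bases, where all protein-coding genes stand at 37.7%, and the copies run near the line of all protein-coding genes at 1 and 2 kb.

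The closest summit lay a median of 106 bases from a member's end (interquartile range 62 to 211.5) and 103 bases from a core gene's end. The median over all protein-coding genes was 657.5 bases. Part of that gap lies in genes that have no summit nearby: among genes with a summit within 1 kb, the median was 99 bases for members and 142 for all coding genes. The ranked plot of distances shows that 82 of the members lie within 500 bases, followed by 2 core genes just under 1 kb and 7 members beyond it.

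**Figure D2:**
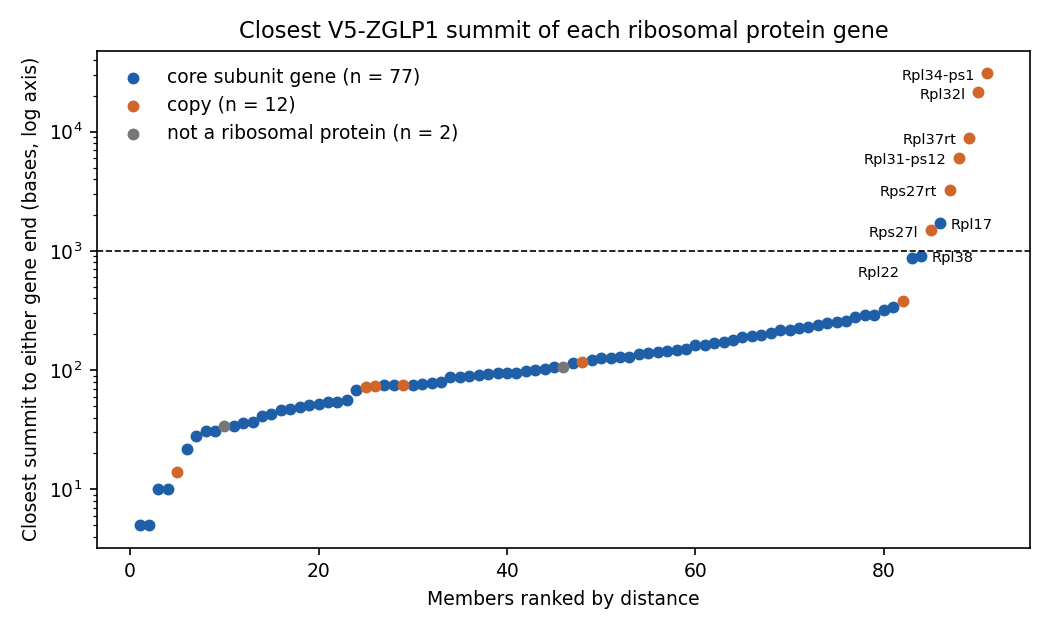
Distance from each of the 91 members to its closest summit (y axis, bases from either gene end, log scale), with members ranked along the x axis and coloured by class; the dashed line is 1 kb. The 77 core genes sit between 5 and 1713 bases, and the 5 farthest members are all copies.

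Small subunit genes all had a summit within 1 kb, 31 of 31, at a median of 91 bases and a range of 5 to 257. Rps6 encodes the subunit's main target of the S6 kinases, and its summit at chr4:86857377 lay 10 bases upstream of the start with no other summit within 10 kb. Rps4x, the X-linked S4 gene, had its summit 5 bases into the gene and 2 within 10 kb. At Rps15 there were 3 summits within 1 kb, at offsets of −10, 744 and 2452 bases from the start. The last of these lay past the gene's far end.

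Rps3 encodes a protein at the channel through which the message enters, and its closest summit lay 78 bases into the gene. In Rps24, mutated in some patients with Diamond-Blackfan anaemia, it lay 34 bases into the gene, with 2 summits within 1 kb. Rpsa, which also serves as a laminin receptor precursor, had it 197 bases into the gene. These 3 genes thus had their closest summit downstream of the start. Rps19, the gene mutated most often in that anaemia, had it 136 bases upstream. Rps19 had 3 summits within 1 kb of an end, at −136, 634 and 6166 bases from the start, so that both ends of its 5220 bases were marked. Rps27a makes S27a fused to ubiquitin, and its summit at 162 bases lay closer to the neighbouring gene Clhc1, at 72 bases. Rps14, whose human counterpart is lost in a deletion syndrome with anaemia, had its closest summit 95 bases inside the gene from an end and 3 within 10 kb.

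Of the large subunit genes, 42 of 43 had a summit within 1 kb, at a median of 128 bases and a range of 5 to 1713. At 100 bases the count was 15 of 43 (34.9%, 21% to 50.9%), while the small subunit had 20 of 31 (64.5%, 45.4% to 80.8%). Of all coding genes, 20.1% had a summit this close. The 2 intervals overlap, that of the large subunit begins near the share of all coding genes, and the difference was not tested. Rpl31 was the closest, 5 bases into the gene, with another summit 506 bases past its far end. Rpl3 encodes a protein that reaches towards the peptidyl transferase centre. It had its closest summit 37 bases outside the gene and 7 within 10 kb. Both genes thus had more than 1 summit near them.

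Rpl5 and Rpl11 together hold 5S ribosomal RNA and bind MDM2 when ribosome assembly fails. Their closest summits lay 272 and 190 bases into the genes, and each gene had 1 summit within 1 kb. Rpl23, which also binds MDM2, had 2 within 1 kb, of which the closest lay 31 bases upstream. Rpl38 is known from mice in which its loss alters the translation of Hox messages. Its summit lay 914 bases inside the outer gene end, but 152 bases after its annotated start. Rpl22 was the other core gene just under 1 kb, at 869 bases by gene end. It had a different summit 103 bases after an annotated start.

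Rpl17 was the only core gene with no summit within 1 kb, and no promoter entry was matched for it. Its closest summit lay inside the gene, 1713 bases from an end, and it had 3 within 10 kb. The gene is 4404 bases long, so this summit lay well inside it.

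The P stalk, which recruits the translation factors, is built of RPLP0, RPLP1 and RPLP2, and all 3 genes had a summit within 100 bases of an end. Rplp2 had it 43 bases into the gene, Rplp0 75 bases into the gene, and Rplp1 88 bases outside. Rplp0 and Rplp2 each had 5 summits within 10 kb and Rplp1 had 2.

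The X chromosome carries 4 members, Rpl10, Rpl36a, Rpl39 and Rps4x. All 4 had a summit within 100 bases (100%, 39.8% to 100%), beside 91 of the 966 X-linked protein-coding genes (9.42%). At 1 kb the X-linked share was 219 of 966 (22.7%). Rpl10 encodes a protein that joins the large subunit late in its assembly, and its closest summit at chrX:74270741 lay 75 bases upstream, with 4 within 10 kb. The summit of Rpl36a lay 100 bases upstream and that of Rpl39 95 bases into the gene, each the only summit within 10 kb. Of the autosomal members, 80 of 87 (92%) lay within 1 kb of a summit, beside 55% of all autosomal protein-coding genes.

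The copies ranged from 14 to 30867 bases, with a median of 935.5. Rpl10l, an autosomal, intronless copy of Rpl10 that is active in the testis, had its summit at chr12:66284387, 14 bases into the gene and alone within 10 kb. Rpl39l, a testis-enriched copy of Rpl39, had its summit 41 bases after its annotated start. Rpl22l1 and Rpl7l1 had theirs 74 and 75 bases upstream. The summit 116 bases upstream of Rpl36al lay closer to Mgat2, at 25 bases. These 5 copies had their closest summit within 116 bases of an annotated start.

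Rps27l, a target of p53, was counted without a summit at 1 kb because the closest lay 1490 bases from the outer gene end, although it lay 28 bases after an annotated start. Rpl3l, the muscle form of Rpl3, had a summit 381 bases past its far end. It lay closer to Msrb1, at 69 bases, and the closest summit to the start of Rpl3l was 3550 bases upstream. Rpl3l thus had no summit of its own start within 1 kb.

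The other 5 copies lay farther away. Distances were 3250 bases for Rps27rt, 6053 for Rpl31-ps12, 8910 for Rpl37rt, 21373 for Rpl32l and 30867 for Rpl34-ps1, and only the last 2 had none within 10 kb. The summit of Rpl37rt lay 168 bases from Acads and that of Rps27rt 631 bases from Osbpl10, so each was closer to another coding gene. Rps19bp1 and Rps23rg1 had summits 34 and 106 bases upstream of their starts, close to the values of core genes.

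The starts of Rps27 and its copy Rps27rt, of Rps6, and of the copy Rpl32l are set side by side below. They were chosen after their values were seen, and only Rps27 and Rps27rt are a core gene and its own copy. Each line holds 40 bases with the annotated start at base 21, from RefSeq in build GRCm38.p6, and capitals mark the C at the start and the 4 bases after it, all C or T.
Rps27, chr3:90213629-90213668, minus strand: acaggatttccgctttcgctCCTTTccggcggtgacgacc
Rps27rt, chr9:114982720-114982759, minus strand: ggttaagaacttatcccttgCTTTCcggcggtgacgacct
Rps6, chr4:86857348-86857387, minus strand: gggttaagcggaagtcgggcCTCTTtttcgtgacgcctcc
Rpl32l, chr10:20208419-20208458, plus strand: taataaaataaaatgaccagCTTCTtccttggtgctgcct

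All 4 begin with C and 4 pyrimidines, but summits lay 36 bases after the start of Rps27 and 10 bases before that of Rps6, against 3623 and 21373 bases from the starts of Rps27rt and Rpl32l. Within the 50 bases after the start, Rps27 and Rps27rt share an unbroken run of 38 bases. In the 250 bases before it, their longest shared run is 10 bases. The pair thus share letters after the start that they do not share before it.

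Pseudogenes with ribosomal protein symbols were mostly far from summits. Of 324, 6 had a summit within 1 kb (1.85%), near the share of all pseudogenes, 244 of 10442 (2.34%). The median distance of the 324 was 34819.5 bases, with no such value given for all pseudogenes. The 6 were Rps4l at 20 bases, Rps2-ps7 at 151, Rps12-ps4 at 258, Rpl10a-ps3 at 301, Rps2-ps9 at 608 and Rpl3-ps1 at 906, and none of these summits had a coding gene end within 1 kb. How reads matching several near-identical copies were placed is not stated in the notes and labels used here, and its part in either share was not tested.

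Which end carried the summit could be read for the 70 members with a promoter entry, which gives direction. A summit lay within 1 kb of an annotated start in 65 of 70 (92.9%), beside 55.7% of all coding genes with an entry. All 57 core genes with an entry had it, none farther than 336 bases, the value of Rpl6. At 100 bases the count was 33 of 57 (57.9%), beside 25.9% of all. The promoter window, from 250 bases before to 50 after the start, held a summit in 44 of 70 members (62.9%) beside 28.4% of all coding genes, and in 36 of 57 core genes (63.2%).

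The core genes' closest summits were spread evenly about the start: 28 lay upstream and 29 at or after it, with a median offset of 5 bases and an interquartile range of −75 to 95. Over all coding genes with a summit this close, the median offset was 18 bases. The plot of each gene's offset runs from −239 bases at Rps18 to 336 at Rpl6. The summit of Rps18 lay 125 bases from the closer neighbour Vps52.

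**Figure D3:**
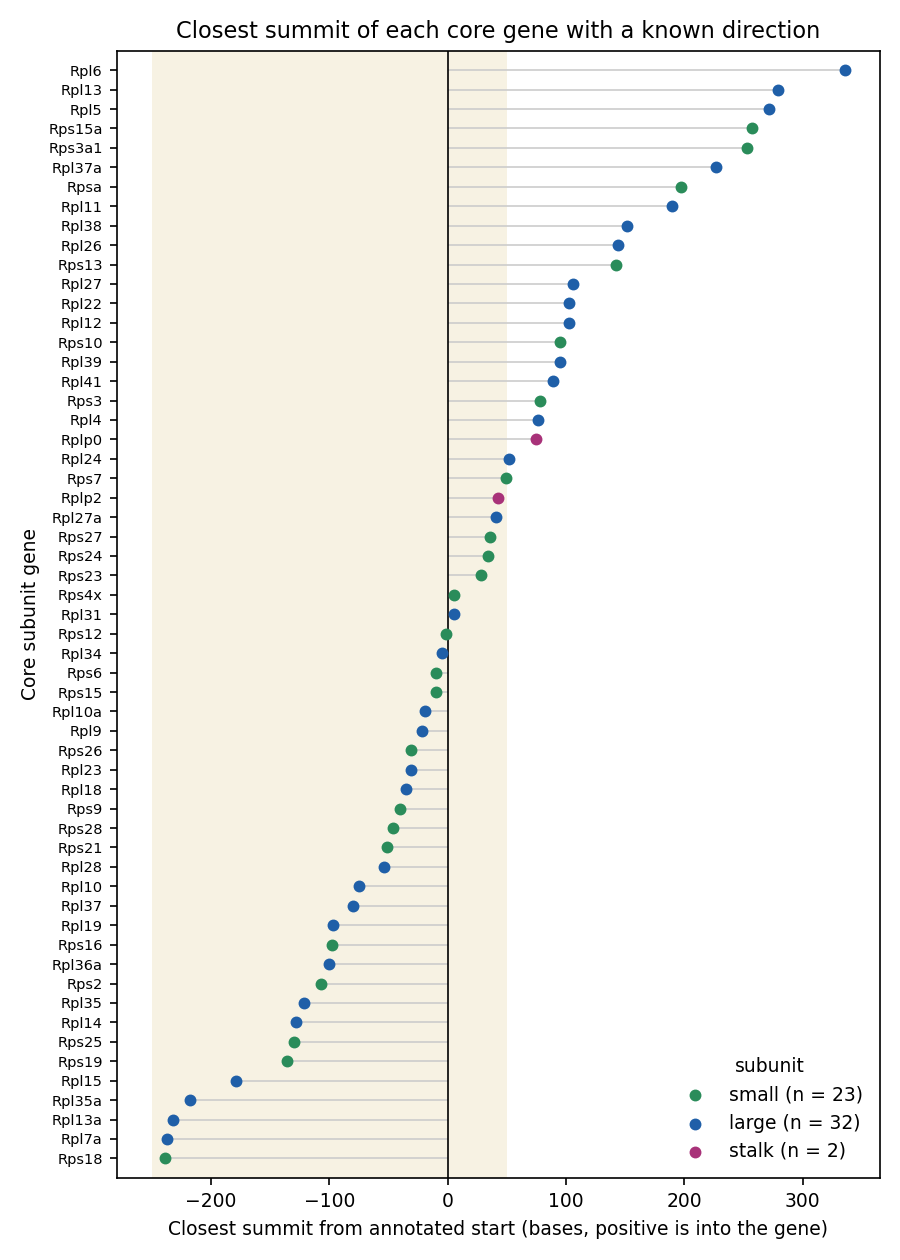
Position of the closest summit (x axis, bases from the annotated start, positive into the gene) for the 57 core genes with a known direction (y axis), coloured by subunit; shading marks the promoter window. Points pass through 0 without a gap, and 28 genes lie to its left and 29 to its right.

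Counting every summit and not only the closest, the 100 bases before core starts held 31.6 summits per 100 genes and the 100 bases after them 26.3. Over all coding genes these densities were 12.2 and 13.6. Between 500 and 700 bases into core genes there were 7.02 per 100 genes in each 100 bases, from 4 summits in each, beside 3.03 and 2.53 over all coding genes.

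**Figure D4:**
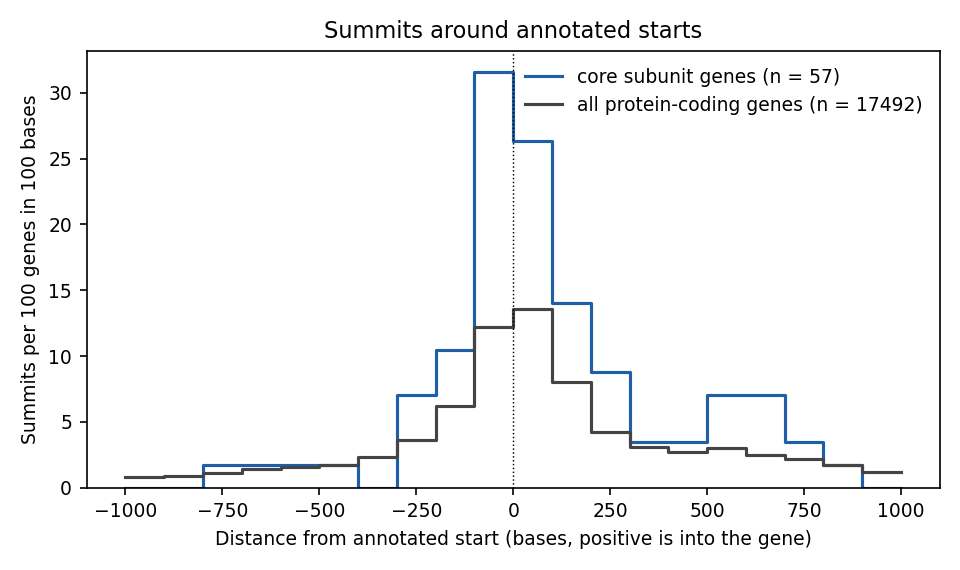
Summits per 100 genes in bins of 100 bases (y axis) by distance from the annotated start (x axis, bases, positive into the gene) for 57 core genes and 17492 protein-coding genes. The core line peaks in the bin before the start at 31.6 and falls beyond 100 bases to 10.5 upstream and 14 downstream.

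Counts at far ends were lower than at starts. A summit lay within 1 kb of the far end in 19 of 70 members (27.1%), beside 6.20% of all coding genes with an entry. In short genes a summit at the start can be within reach of the far end. Among core genes over 2 kb long the count was 12 of 49 (24.5%), beside 458 of 4949 coding genes (9.25%) over 2 kb and up to 11774 bases. Of these 12, Rpl10, Rpl10a, Rpl4, Rps18 and Rps2 had a far-end summit that lay closer to another coding gene, and the others did not. How often this held among the 458 was not counted. Within 100 bases of the far end there was a summit in none of the 57 core genes and in 0.406% of all coding genes, and within 250 bases in 1 core gene (1.75%) and 1.3% of all. At these limits the core genes were near the background. The core gene within 250 bases was Rps2, whose summit lay 247 bases past its far end and 114 from Ndufb10. Among members, 47 of 70 had a summit at the start and not at the far end (67.1%, beside 51% of all coding genes with an entry), and 18 had both (25.7%, beside 4.74%). Rpl3l alone had the far end only (1.43%, beside 1.46%).

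For the 20 core genes with no promoter entry, only the distance to either end is known. A summit lay within 1 kb in 19 of them, at 37 to 292 bases, and the exception was Rpl17. Members with no entry include Rpl17, Rpl21, Rpl23a, Rpl29, Rpl3, Rpl30, Rpl32, Rpl34-ps1, Rpl36, Rpl7, Rpl8, Rplp1, Rps14, Rps20, Rps27a and Rps29.

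Members often had several summits. Within 1 kb, 47 had 1, 28 had 2, 8 had 3 and Rpl10a had 4, so that 37 had at least 2 (40.7%), where 3895 of all coding genes did (17.8%). Among genes with any summit this close, the shares were 44% and 33.6%. Within 10 kb the median was 3 summits per member (interquartile range 2 to 5) and 1 per coding gene. Among genes with a summit within 1 kb, the medians within 10 kb were 3 and 2. Rpl10a and Rpl23a had most, 8 each, and Rpl13a and Rpl18 were among those with 7. Around Rpl10a, at chr17:28328471-28331033, the 4 summits within 1 kb lay at −749, −19, 610 and 2994 bases from an annotated start. The last of these lay 112 bases from Tead3. At Rpl23a, 6 of the 8 summits lay closer to Nek8, Tlcd1 or Rab34. High counts within 10 kb thus included summits of neighbouring genes.

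Over all members, 117 of the 290 member-summit pairs within 10 kb had another coding gene's end closer to the summit, and 98 of the 159 pairs beyond 1 kb did. Such pairs were not counted for all coding genes. Within 1 kb, 18 of the 84 closest summits also had another coding gene's end within 1 kb (21.4%, beside 25% for all coding genes). At 10 the other end was closer (11.9%, beside 10.1%). Both shares were near those of all coding genes. The summit of Rpl9 lay 22 bases from it and 44 from Lias, and that of Rpl15 lay 179 bases from it and 29 from Nkiras1. Members that lie side by side can share summits, as Rps2 and Rpl3l share 6. Since each summit counts for each gene in reach, these pairs are not independent of each other. In all, 131 different summits lay within 1 kb of a member and 279 within 10 kb.

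snoRNA genes lie inside 30 members, 59 of them in all. Of these 30 hosts, 29 had a summit within 1 kb, and the exception was Rpl17, which holds 3. Such a summit was found in 98.7% of core genes and 52.9% of all protein-coding genes, so the hosts stood close to the core genes as a whole. Rpl13a holds 4, and Rpl3, Rpl5, Rpl23a and Rpsa hold 3 each.

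The letters of the promoter windows were compared next, over 67 windows of core genes and 21263 of all coding genes, each 300 bases long, since some genes have several starts. The letters searched for, on both strands, were 4 forms for GATA factors, namely AGATAA, its variant AGATAG, the form TGATAA and its variant TGATAG. For ETS factors such as GABPA they were CCGGAAG, for YY1 they were AAGATGGC, for SP factors GGGCGG, for the E-box of MYC they were CACGTG, for CREB factors TGACGTCA, and for the TATA box they were TATAAA. A window counted once per motif however many matches it held, the GATA forms share their inner letters, and the E-box and CREB letters read the same on both strands. ETS letters were in 37.3% of core windows, 11.6% of all windows and 23.5% of all windows that held a summit. YY1 letters were in 10.4%, 3.05% and 5.5% of the same 3 sets. CREB letters were in 7.46%, 2.23% and 4.02%. For all 3 motifs the core windows stood above both sets of coding windows. Windows of a gene with several starts overlap and can count the same letters again: the 7 core windows with YY1 letters belong to 5 genes, 3 of them to Rpl35a. Counted once per gene, a count chosen after seeing the data, ETS letters were in 24 of 57 core genes (42.1%) and 12.9% of all. YY1 letters were in 5 (8.77%) and 3.57%, and CREB letters in 5 (8.77%) and 2.54%. In the windows with a summit of 4966 coding genes, the 3 shares were 23.8%, 5.7% and 4.07%. With 5 core genes each, the YY1 and CREB shares rest on few genes, and no difference was tested.

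GATA letters, the kind of site bound by the family ZGLP1 resembles, were in 20.9% of core windows (14 of 67), 26% of all windows and 13.9% of all windows with a summit. Core windows that held a summit had them in 17.5% of cases (7 of 40) and core windows that held none in 25.9% (7 of 27). Here and below, a core window without a summit does not mean a core gene without one. Every core gene with an entry had a summit within 336 bases of a start, often just outside the window. Some of these windows belong to a second start of a gene whose other window held the summit, as at Rpl34. At Rpl36a the letters began at −101, and the summit was at −100. At Rpl10 they began at −55 and −1, with the summit at −75. In the other 5 windows with both, those of Rpl10a, Rpl37, Rps26, Rps4x and Rps6, the closest letters began 34 to 196 bases from the summit. SP letters were in 61.2% of core windows, 46.2% of all and 71% of all with a summit. E-box letters were in 11.9%, 7.84% and 11.4%, and TATA letters in 8.96%, 12.6% and 5.05%. A match is only a match of letters within the window.

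A C at the annotated start followed by 4 C or T, the letters with which a TOP tract begins, stood in 13 of 67 core windows (19.4%). The shares were 2.21% of all windows and 2.27% of all windows with a summit. Core windows with a summit had them in 25% of cases (10 of 40) and those without in 11.1% (3 of 27). The 10 were Rpl14, Rpl15, Rpl28, Rpl35, Rpl35a, Rplp2, Rps18, Rps21, Rps27 and Rps6. A run of 8 C or T within 20 bases of the start was in 44.8% of core windows and 16.3% of all. Where transcription began in these cells was not measured.

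**Figure D5:**
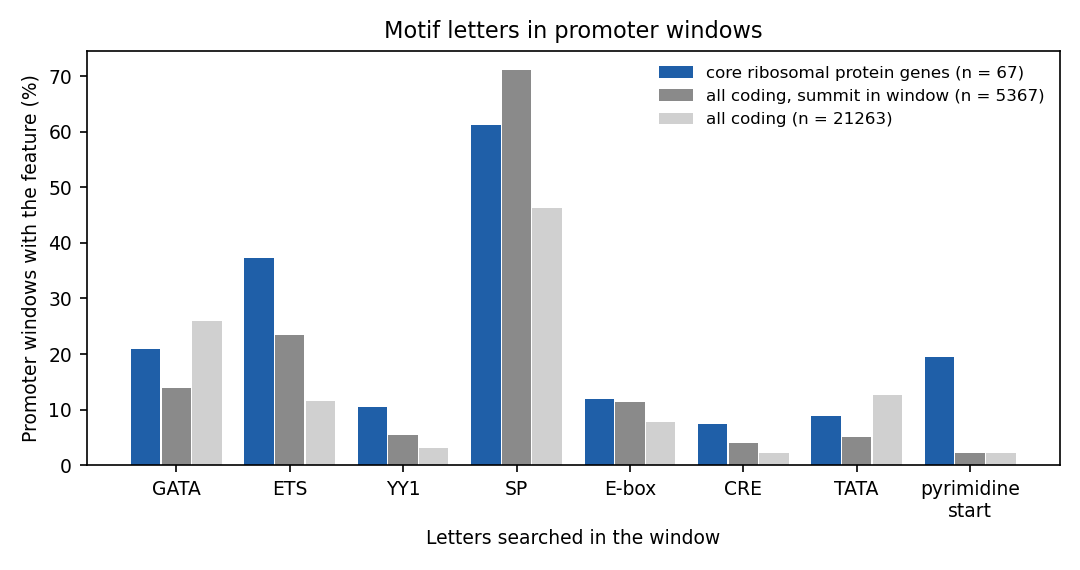
Percentage of promoter windows (y axis) that hold each set of letters (x axis) for 67 core windows, 5367 windows of all coding genes with a summit and 21263 windows of all coding genes; the last group is a C at the annotated start with 4 C or T after it. Core windows stand highest for ETS, YY1, the CREB letters (CRE) and the pyrimidine start. They are barely highest for the E-box (11.9% beside 11.4% of windows with a summit), and windows with a summit stand highest for SP.

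Base composition moved with the presence of a summit. The observed over expected ratio of CpG, which is high in CpG islands, had a median of 0.877 in core windows, 0.567 in all windows and 0.814 in all windows with a summit. In core windows it was 0.919 with a summit and 0.849 without, and in the copies' 13 windows it was 0.643. GC content had a median of 58.3% in core windows, 56.3% in all and 63% in all with a summit. The part of CpG content in the members' share of summits was not tested.

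Other genes of translation or with TOP messages, and regulators of translation, were read in the same way. The lists were chosen with earlier results of these data known. Fau, which encodes the small subunit's S30 fused to a ubiquitin-like protein and falls outside the symbol rule, had a summit at 123 bases. A list of 23 genes, most with TOP messages, included Fau and also genes that are not translation genes, such as Vim and Nap1l1. All 23 had a summit within 1 kb, at a median of 110 bases. Among them, the elongation factor genes Eef1a1 and Eef2 had theirs at 44 and 104 bases. Of the ribosome biogenesis genes, 43 of 44 (97.7%) had such a summit, at a median of 96 bases, among them Ncl at 39 and Nop56 at 34. The exception was Ubtf, the RNA polymerase I factor, at 3216 bases. Of 15 regulators, 14 had a summit within 1 kb (93.3%) at a median of 90 bases, and Larp1, at 2621 bases, did not. The regulators include transcription and checkpoint factors. The core ribosomal protein genes stood at 98.7% and all protein-coding genes at 52.9%, with a median distance of 657.5 bases over all protein-coding genes. The differences between these shares were not tested.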

How the data were processed

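Chromatin recovered with an anti-V5 antibody was sequenced for 5 ChIP libraries beside 3 inputs, per the labels. The only values the authors deposited are positions of peak summits in mm10, with other columns holding no score, p-value or library. Per the submitters' processing notes, which give no role for them, the tools were MACS2 2.1.1.20160309, Bowtie 1.1.2, HOMER 4.9.1, Trim Galore 0.4.1, SAMtools 1.3, cutadapt 1.9.1, bedtools and Picard 2.1.0. Their settings, the libraries that gave the peaks, the threshold and the treatment of reads with several matches are not given in the sources used here. Read depth is unknown, so genes lacking a summit can be unbound or have fallen short of the threshold. Whether positions count from 0 or 1 is not given and moves a distance by at most 1 base.

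Distances were computed with Python 3.11.15, numpy 2.4.6 and pandas 2.3.3 from each summit to both ends of each gene in a RefSeq table of GRCm38.p6, the assembly mm10 is built on. A RefSeq promoter table gave direction, annotated starts and windows from 250 bases before to 50 after, for 70 of 91 members. The closest of several starts was used for all genes. Exact intervals came from SciPy 1.17.1. The distance code was tested on simulated data. Shares are set beside all protein-coding genes, without a test.

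The members and lists were chosen with earlier results of these data known. Genes were named by a rule: members without a summit within 1 kb, the 5 closest, the 5 farthest, the 5 with most summits within 10 kb (ties alphabetical), the X-linked members, the copies, the symbol matches that are not ribosomal proteins, and Rps6, Rpsa, Rplp0, Rplp1, Rplp2, Rps14, Rps19, Rpl5, Rpl11, Rpl10, Rpl38, Rps27a, Rpl3, Rpl23, Rps3 and Rps24. Some genes are not reported by name here. Any other gene was named after its values were seen. Alternatives changed the distance limit, the gene end, the members and the link of summits to genes, and merged summits within 1 kb of each other.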

Additional observations from a re-analysis of the deposited data

How the results depend on the processing

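The share of members with a summit within 1 kb of a gene end, 92.3%, stayed within its interval with annotated starts only (92.9%), with merged summits (92.3%), in autosomal members (92%), with summits closest to the member only (85.7%), and at limits of 500 bases (90.1%) and 2 kb (94.5%). In these settings all coding genes stood at 55.7%, 52.2%, 55%, 49%, 47.6% and 57.3%. The interval covers counting error only, and leaving out the 4 X-linked members could hardly move the share. The members' share was 98.7% in core genes only, 81.3% at a limit of 250 bases, 47.3% at 100 bases and 27.1% at far ends only. Beside these stand 52.9%, 37.7%, 20.1% and 6.2% of all coding genes. Alternatives chosen after seeing the data gave 25% at far ends of members over 2 kb, beside 5.88% of all coding genes over 2 kb. They gave 96.5% of members in the length range of core genes, beside 48% of all coding genes in it. The share within 10 kb, 97.8%, was 100% in core genes only, beside 66.6% of all coding genes. With summits closest to the member only it was 90.1%, beside 58.8% of all coding genes. At 50 kb it was 100%, where all coding genes reached 78%. The median distance of 106 bases was 95 with starts only and 103 in core genes. The 3 summits per gene within 10 kb became 2 when merged and 2 at 5 kb. Counting motif letters once per gene kept every core share within the interval of its share by window. No paired analysis was possible because the list names no library and each group has 1. The list shows neither how strong a summit is nor in which of the 5 ChIP libraries it was found.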
